A study of Homo sapiens with 6 samples.

Results

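The replication-dependent histone genes supply the core and linker histones that package new DNA. They were taken as every row of the count tables whose symbol begins with HIST1H, HIST2H, HIST3H or HIST4H, which gave 66 of 20683 gene symbols. By class these were 6 genes of the linker histone H1 and, of the core histones, 15 of H2A, 20 of H2B, 12 of H3 and 13 of H4. The 20 of H2B include HIST2H2BA and HIST2H2BC, which RefSeq lists as transcribed pseudogenes. The counts come from HT-1080, an established line of human fibrosarcoma cells, kept for 4 h with SLV-8472-01, a compound that the series calls an IRAK4 inhibitor, or with its solvent. IRAK4 is a kinase that relays signals of interleukin receptors and Toll-like receptors. The labelled dose of the compound was 5 mM, and the labels do not say whether this was a stock or the concentration on the cells. Control cells had 0.1% DMSO for the same 4 h. The 3 libraries of each group are biological replicates according to the submitters, from cells grown with serum that were not described as synchronised.

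These genes lie in clusters and most have no introns. Their transcription rises in S phase, when NPAT, a coactivator phosphorylated by cyclin E with CDK2, acts at the histone gene clusters. Their mRNAs end in a conserved stem-loop in place of a poly(A) tail, and the stem-loop-binding protein SLBP binds it for processing, translation and decay. When DNA synthesis stops, these mRNAs are degraded rapidly. Some members can also make polyadenylated mRNA outside S phase. Core histones form the nucleosome, and H1 binds the linker DNA between nucleosomes.

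The stem-loop shows what the members share at the 3′ end of the mRNA. GENCODE v29 transcripts (GRCh38) were found for all 66 members, and 27 of the 66 held the histone stem-loop motif in any of their transcripts. Counted by single transcripts, 84 (0.0406%) of 206694 held it, those of the members included. The first count is of genes and the second of transcripts, so the shares are not of the same unit. A transcript model can end before the stem-loop, so a model without a match does not show that the mRNA lacks it. The first form below was found in 13 members, among them HIST2H2BE, and the other forms in 5 H4 genes and in 5 members that include HIST1H2BD. Capitals mark the stem-loop in the site of each named gene.
HIST2H2BE: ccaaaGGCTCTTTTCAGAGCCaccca
HIST1H4B: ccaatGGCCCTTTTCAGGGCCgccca
HIST1H2BD: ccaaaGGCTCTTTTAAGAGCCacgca

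At the 5′ end, promoters were found in RefSeq (GRCh38.p14) for 54 members, and 61 members matched a RefSeq gene through an older symbol. In the 300 bases from 250 before to 50 after the start, on either strand, CCAAT was present in 46 of the 54 (85.2%), against 35.4% of 27305 promoters of the same length. It was in each of the H1, H2A, H2B and H3 promoters but in 3 of 11 of H4. The TATA box letters TATAAA were in 36 (66.7%), against 12.3% of all promoters. The octamer ATTTGCAT, which the transcription factor OCT1 (gene POU2F1) is known to bind in H2B promoters, was in 11 of 14 H2A and 9 of 13 H2B promoters, in 0 of the others, and in 1.83% of all promoters. H2A and H2B genes can share such a window, since 8 H2A and H2B pairs start head to head within 1000 bases of each other.

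To compare members that fell with members that were not called, the 150 bases before the start of an H3 and an H2B gene of each kind are given, with the letters of these 3 motifs on either strand in capitals. HIST1H3A and HIST1H2BM fell, and HIST1H3B and HIST1H2BD were not called, as described below.
HIST1H3A, chr6:26020301-26020450, plus strand: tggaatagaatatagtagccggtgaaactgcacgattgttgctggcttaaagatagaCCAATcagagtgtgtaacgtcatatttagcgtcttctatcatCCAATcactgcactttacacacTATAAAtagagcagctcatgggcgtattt
HIST1H3B, chr6:26032100-26032249, minus strand: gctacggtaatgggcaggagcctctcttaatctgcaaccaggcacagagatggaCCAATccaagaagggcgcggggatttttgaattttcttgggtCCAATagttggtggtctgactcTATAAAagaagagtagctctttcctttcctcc
HIST1H2BM, chr6:27814872-27815021, plus strand: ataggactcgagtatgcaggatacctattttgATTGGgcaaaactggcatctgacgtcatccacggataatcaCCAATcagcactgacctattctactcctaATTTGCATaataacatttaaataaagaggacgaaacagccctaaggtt
HIST1H2BD, chr6:26157972-26158121, plus strand: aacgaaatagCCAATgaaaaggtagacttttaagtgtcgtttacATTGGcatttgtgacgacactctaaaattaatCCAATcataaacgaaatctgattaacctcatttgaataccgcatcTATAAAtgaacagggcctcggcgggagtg
Both H3 promoters hold CCAAT at 2 places and TATAAA at 1. The promoter of HIST1H2BM has the octamer 48 bases before the start and no TATAAA in these bases. That of HIST1H2BD has TATAAA and no octamer. HIST1H2BB, which also fell, has TATAAA and the octamer, the latter 120 bases before the start. Of H2B genes not called, HIST1H2BJ, HIST1H2BK and HIST2H2BE have TATAAA and the octamer, 47, 49 and 46 bases before the start. HIST1H2BL, HIST1H2BN and HIST3H2BB, not called either, have no octamer. Among tested members with a promoter, the octamer was in 4 of 8 that fell and in 7 of 21 that were not called. CCAAT was in 7 of 8 and 19 of 21, and TATAAA in 6 of 8 and 14 of 21. These counts pool the classes, while the octamer was found only in H2A and H2B promoters, so they do not compare like genes. At the 3′ end, the stem-loop motif was found for 2 of 10 tested members that fell and 17 of 26 not called. A transcript model can end before it, so these counts do not compare the mRNAs. A match is a description of the letters and not a measured site.

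Library totals ran from 7644478 to 15336351 counts, and the histone genes held 50900 to 132513 of them. Values below are normalised counts (CPM, counts scaled to a common library size), with TMM factors, and CPM are compared between groups and not between genes, since each gene was counted on its own amplified part. VIM, a mesenchymal marker, had a mean of 6019 CPM under the inhibitor (SD 1072) and 5648 CPM under DMSO (SD 546), and the 14 mesenchymal markers summed to 6013 to 7987 and 5838 to 6904 CPM. The epithelial marker CDH1 and the leukocyte markers PTPRC and CD3E had 0 counts in every library, and EPCAM had 3 counts in all. Not every marker followed the labelled cell type. The epithelial keratin genes KRT8 and KRT18 had means of 170 and 97.1 CPM with the inhibitor and 156 and 107 CPM with DMSO. The mesenchymal markers COL3A1, DCN and THY1 had 2, 3 and 3 counts in all, and LUM had 0. Of tested markers, 4 of 10 mesenchymal genes rose, among them COL6A3 and FN1, beside 9.92% of all genes tested by edgeR. Of the 10, 0 fell by edgeR, by DESeq2 or at an unadjusted p under 0.05. None of 3 epithelial genes was called by these measures. Of 2 leukocyte genes, CD68 rose (log2 fold change 0.32, edgeR adjusted p = 0.0294), a call not kept without any one of 4 libraries (0.24 to 0.33) or with library totals as the scaling (0.25). The 9 epithelial markers summed to 237 to 288 CPM with the inhibitor and 254 to 278 with DMSO, and the 7 leukocyte markers to 337 to 358 and 252 to 301. Their part in the histone results was not tested. By library, the upper limit that 0 counts leave was between 0.191 and 0.402 CPM, for counting error only.

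Part of the histone genes fell with the inhibitor, HIST1H3A the most, and no histone gene was called higher. Of the 66 genes, 12 had no count in any library, 18 had 1 to 37 counts in all and were not tested, and 36 passed the filter on low counts. These 36 held 99.96% of the histone counts, and 35 of them, all but HIST1H2BF, were over the filter's level in all 6 libraries. Of the 36, 10 fell and 0 rose (edgeR quasi-likelihood test, adjusted p under 0.05), while of the 11391 genes tested 20.2% were called, 10.3% lower and 9.92% higher. At an unadjusted p under 0.05, 18 of the 36 were lower and 1 was higher, beside 17.0% and 16.3% of all genes tested. The 1 higher was HIST1H2BF, which entered the test through the inhibitor group, so nothing is read from it. DESeq2 called 11 lower and 0 higher, beside 9.09% and 8.19% of the 11473 genes with an adjusted p. Fewer cells in S phase and less histone mRNA per cell cannot be told apart in bulk RNA. The median log2 fold change of the 36 was -0.26, beside 0.0034 over all genes tested. The 26 that were not called had log2 fold changes from -0.64 to 0.95, 20 of them below 0. The highest was that of HIST1H2BF, and the next was 0.56 (HIST2H2BC). The groups did not overlap for 16 genes with the inhibitor lower and 2 with it higher, where 18.7% and 17.7% of all tested genes did so. HIST1H2BF was 1 of the 2. With library totals as the scaling 17 histone genes were called lower, beside 15.0% of all genes, and 0 higher, beside 7.30%.

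**Figure D1:**
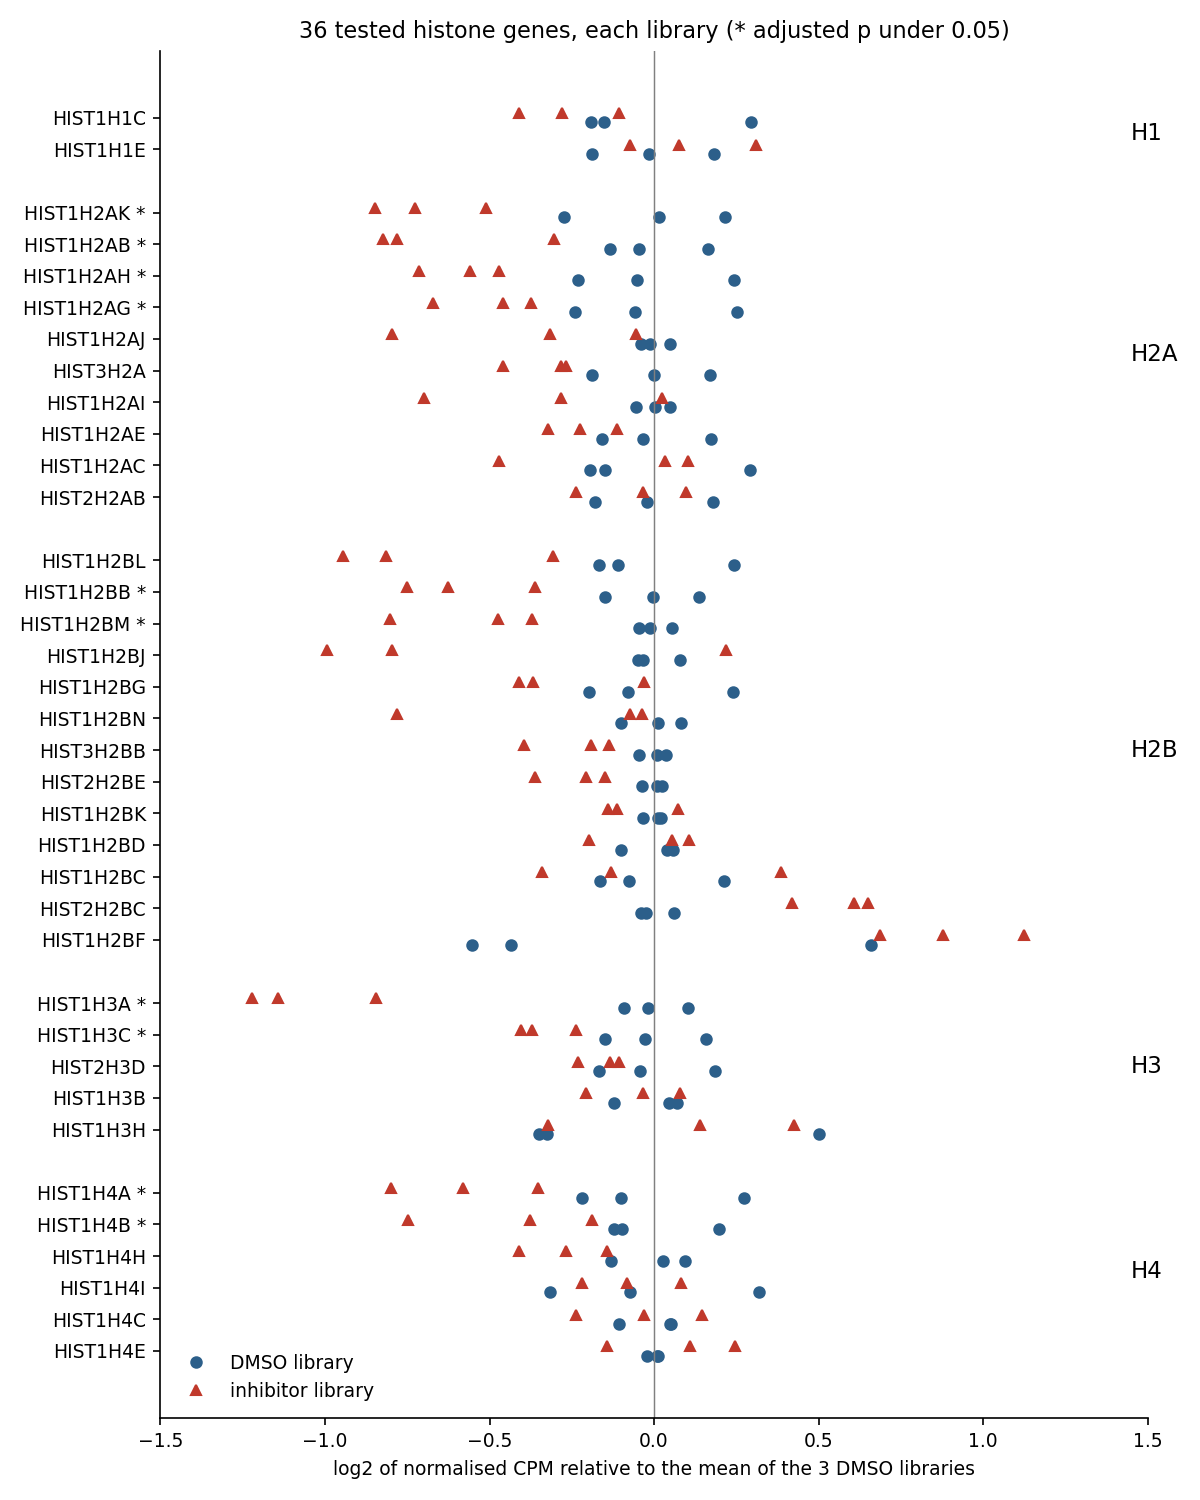
Normalised CPM of the 36 tested histone genes in each library, as log2 relative to the mean of the 3 DMSO libraries, by class and within a class by log2 fold change. Circles are DMSO and triangles inhibitor libraries, and an asterisk marks the 10 genes that fell. The triangles of HIST1H3A lie farthest to the left, and those of HIST1H3B and HIST1H4C overlap the circles.

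Among H3 genes, HIST1H3A had the largest fall of all histone genes. Its level was 45.5, 59.0 and 48.0 CPM with the inhibitor and 99.6, 114 and 105 CPM with DMSO in replicates 1, 2 and 3. All 3 inhibitor libraries lay far below the DMSO libraries (log2 fold change -1.06 ± 0.12, SE, edgeR adjusted p = 8.01e-07). HIST1H3B, an H3 gene with the same CCAAT and TATAAA letters in its promoter, was at 695, 846 and 783 CPM with the inhibitor and 737, 840 and 826 CPM with DMSO. Its groups overlapped (log2 fold change -0.05 ± 0.10, adjusted p = 0.782). HIST1H3C, which held 56.1% of the H3 counts, was at 952, 1045 and 931 CPM with the inhibitor and 1110, 1208 and 1374 CPM with DMSO. It fell by 0.33 on the log2 scale without overlap (adjusted p = 0.0259), but it was not called without inhibitor replicate 1 or 3 or DMSO replicate 2 or 3 (adjusted p from 0.0582 to 0.146). The remaining tested H3 genes, HIST2H3D and HIST1H3H, had log2 fold changes of -0.16 ± 0.19 and 0.08 ± 0.36 at under 7 CPM.

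The H2A genes had 4 falls among 10 tested, where 10.3% of all genes tested were called lower. HIST1H2AH, which held 30.9% of the H2A counts, was at 477, 448 and 402 CPM with the inhibitor and 562, 638 and 781 CPM with DMSO. The DMSO libraries differed among themselves, with replicate 3 the highest, and the groups did not overlap (log2 fold change -0.58 ± 0.12, adjusted p = 0.00115). HIST1H2AG was at 289, 306 and 249 CPM with the inhibitor and 337, 382 and 474 CPM with DMSO. It fell by 0.50 on the log2 scale (adjusted p = 0.00508), and without DMSO replicate 3 it had a log2 fold change of -0.35 (adjusted p = 0.0507). HIST1H2AB fell by 0.62 on the log2 scale, from 71.4 ± 7.66 to 46.6 ± 9.80 CPM (SD, n = 3, adjusted p = 0.00191). HIST1H2AK fell by 0.68 on the log2 scale, from 21.2 ± 3.54 to 13.2 ± 1.59 CPM (SD, n = 3, adjusted p = 0.00266).

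HIST1H2AC and HIST2H2AB, which held 13.5% and 12.3% of the H2A counts, had log2 fold changes of -0.09 ± 0.14 and -0.05 ± 0.11, and their groups overlapped. HIST3H2A was lower in every inhibitor library (-0.34 ± 0.12), with an adjusted p = 0.0528, just above the threshold. HIST1H2AE had a log2 fold change of -0.22 ± 0.12. HIST1H2AI and HIST1H2AJ share a run of 332 bases in their GENCODE transcripts, the longest shared by a tested member with any other. Their counts were nearly equal in every library, with 0.970 to 1.068 counts of HIST1H2AJ for 1 of HIST1H2AI, and the files do not show whether reads of either copy were counted on the other. Summed, they were at 263, 319 and 192 CPM with the inhibitor and 319, 334 and 316 CPM with DMSO, and inhibitor replicate 3 was far below the rest. Singly, they had log2 fold changes of -0.29 ± 0.13 and -0.36 ± 0.13 (adjusted p = 0.126 and 0.0602). HIST1H2AJ was called lower without inhibitor replicate 2 (adjusted p = 0.0106), with library totals (0.0172) and with no filter (0.00817), and its adjusted p was 0.26 without inhibitor replicate 3.

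Of 13 tested H2B genes, 2 fell (15.4%), not far from the 10.3% called lower over all genes tested. HIST1H2BM was at 166, 154 and 123 CPM with the inhibitor and 213, 208 and 223 CPM with DMSO. The DMSO libraries were close together and all above the inhibitor libraries (log2 fold change -0.54 ± 0.11, adjusted p = 0.0016). HIST1H2BB fell by 0.57 on the log2 scale, from 16.9 ± 1.67 to 11.4 ± 1.60 CPM (SD, n = 3, adjusted p = 0.0099). The H2B genes with the most counts were not called. HIST1H2BD was at 634, 656 and 532 CPM with the inhibitor and 634, 627 and 569 CPM with DMSO, a log2 fold change of -0.01 ± 0.10. HIST1H2BC was at 468, 327 and 283 CPM with the inhibitor and 320, 340 and 415 CPM with DMSO. Inhibitor replicate 1 was its highest library and inhibitor replicate 3 its lowest, and without inhibitor replicate 1 its log2 fold change was -0.23 in place of 0.01.

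HIST2H2BE was at 519, 499 and 448 CPM with the inhibitor and 586, 580 and 562 CPM with DMSO. The groups did not overlap, and the difference was small (log2 fold change -0.24 ± 0.10, adjusted p = 0.0931). It shares a run of 140 bases with HIST2H2BF, a row without counts. HIST1H2BF and HIST2H2BC, which RefSeq lists as the pseudogene H2BC20P, were the tested members whose inhibitor libraries all lay above the DMSO libraries. HIST1H2BF passed the filter on low counts in 3 inhibitor libraries and 1 DMSO library, so it entered the test through the group where it is high, and nothing is read from its values. Raw counts of HIST1H2BF were 17, 19 and 13 in the inhibitor libraries and 11, 10 and 18 in the larger DMSO libraries (log2 fold change 0.95 ± 0.38, adjusted p = 0.0841), with a call without DMSO replicate 3 (adjusted p = 0.0329). HIST2H2BC had a log2 fold change of 0.56 ± 0.28 at under 3 CPM. The other 6 tested H2B genes, HIST1H2BG, HIST1H2BJ, HIST1H2BK, HIST1H2BL, HIST1H2BN and HIST3H2BB, had log2 fold changes from -0.64 to -0.06.

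H4 is among the most conserved proteins known. Of its 6 tested genes, 2 fell, beside 10.3% of all genes tested. HIST1H4A was at 61.4, 71.9 and 52.8 CPM with the inhibitor and 78.9, 85.7 and 111 CPM with DMSO, without overlap (log2 fold change -0.56 ± 0.13, adjusted p = 0.00418). HIST1H4B was at 210, 240 and 163 CPM with the inhibitor and 313, 251 and 255 CPM with DMSO. It fell by 0.42 on the log2 scale (adjusted p = 0.0211), but it was not called without inhibitor replicate 3 (adjusted p = 0.0924) or DMSO replicate 1 (0.121). HIST1H4C, which held 44.5% of the H4 counts, was at 657, 855 and 758 CPM with the inhibitor and 800, 801 and 719 CPM with DMSO. The inhibitor libraries lay on both sides of the DMSO libraries (log2 fold change -0.03 ± 0.11, adjusted p = 0.866). HIST1H4H had a log2 fold change of -0.27 ± 0.10 without overlap (adjusted p = 0.0717), HIST1H4E one of 0.08 ± 0.11 and HIST1H4I one of -0.09 ± 0.38.

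Both tested H1 genes overlapped between groups. HIST1H1E, which held 62.8% of the H1 counts, was at 450, 383 and 346 CPM with the inhibitor and 319, 359 and 412 CPM with DMSO. Its log2 fold change was 0.11 ± 0.11 (adjusted p = 0.519). HIST1H1C was at 180, 223 and 198 CPM with the inhibitor and 216, 210 and 294 CPM with DMSO. DMSO replicate 3 stood above the rest, and the log2 fold change was -0.26 ± 0.12 (adjusted p = 0.141).

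The 30 members that were not tested were of every class. The 12 without a count were HIST1H1B and HIST1H1D of H1, HIST1H2BH, HIST1H2BI, HIST2H2BA and HIST2H2BF of H2B, HIST1H3D of H3, and HIST1H4F, HIST1H4G, HIST1H4J, HIST1H4K and HIST1H4L of H4. HIST1H4J and HIST1H4K share a run of 312 bases. Among those with few counts, HIST1H1A had 16, HIST2H2AC 37 and HIST4H4 34 over the 6 libraries. A further 11 had 1 to 7 counts each, namely HIST1H2AD, HIST1H2AL and HIST1H2AM of H2A, HIST1H2BE and HIST1H2BO of H2B, HIST1H3E, HIST1H3F, HIST1H3G, HIST1H3I and HIST1H3J of H3, and HIST1H4D of H4. What sets the low counts was not tested. The testis-specific genes HIST1H1T, HIST1H2AA, HIST1H2BA and HIST3H3 had 30, 27, 21 and 2 counts over the 6 libraries.

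Since copies of a class are alike, counts were also summed by class before scaling. Long exact runs were few among the 36 tested members. The longest run that a member's transcripts share with another member had a median of 53 bases, and was over 100 bases for 4. The H2A sum was 1662, 1697 and 1336 CPM with the inhibitor and 1838, 1960 and 2301 CPM with DMSO. The groups did not overlap, and the geometric mean with the inhibitor was 0.769 times that with DMSO (difference of mean log2 values -0.38 ± 0.15, SE). The H3 sum was 1699, 1957 and 1768 CPM with the inhibitor and 1953, 2171 and 2311 CPM with DMSO, where inhibitor replicate 2 lay just above DMSO replicate 1 (-0.25 ± 0.09). The H4 sum was 1452, 1811 and 1563 CPM with the inhibitor and 1814, 1810 and 1786 CPM with DMSO, again with inhibitor replicate 2 inside the DMSO range (-0.17 ± 0.09). Each gene was counted on its own amplified part, so sums and class shares are weighted towards the most counted genes. HIST1H2AH and HIST1H2AG held 30.9% and 18.9% of the H2A counts. For H3, HIST1H3C and HIST1H3B held 56.1% and 39.3%, and for H4, HIST1H4C and HIST1H4H held 44.5% and 27.6%.

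The H2B sum was 2037, 1904 and 1610 CPM with the inhibitor and 2043, 2046 and 2044 CPM with DMSO. Inhibitor replicate 1 came within a few CPM of DMSO, and the difference of -0.15 ± 0.10 was -0.05 without inhibitor replicate 3. The H1 sum was 631, 606 and 544 CPM with the inhibitor and 535, 570 and 707 CPM with DMSO, a difference of -0.02 ± 0.14 within the spread of the libraries. It was 0.10 without DMSO replicate 3. Without HIST1H1E it was -0.25, which only repeats HIST1H1C, the gene with 37.1% of the H1 counts and nearly all of the rest. Over all 5 classes the sum was 7481, 7975 and 6820 CPM with the inhibitor and 8183, 8556 and 9148 CPM with DMSO. The groups did not overlap, and the difference was -0.22 ± 0.08, a ratio of 0.860. No test was made on these sums. In their shares of the histone counts, H2A took a mean of 21.0% under the inhibitor (SD 1.33, n = 3) and 23.5% under DMSO (SD 1.44), and it was the class whose shares did not overlap.

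**Figure D2:**
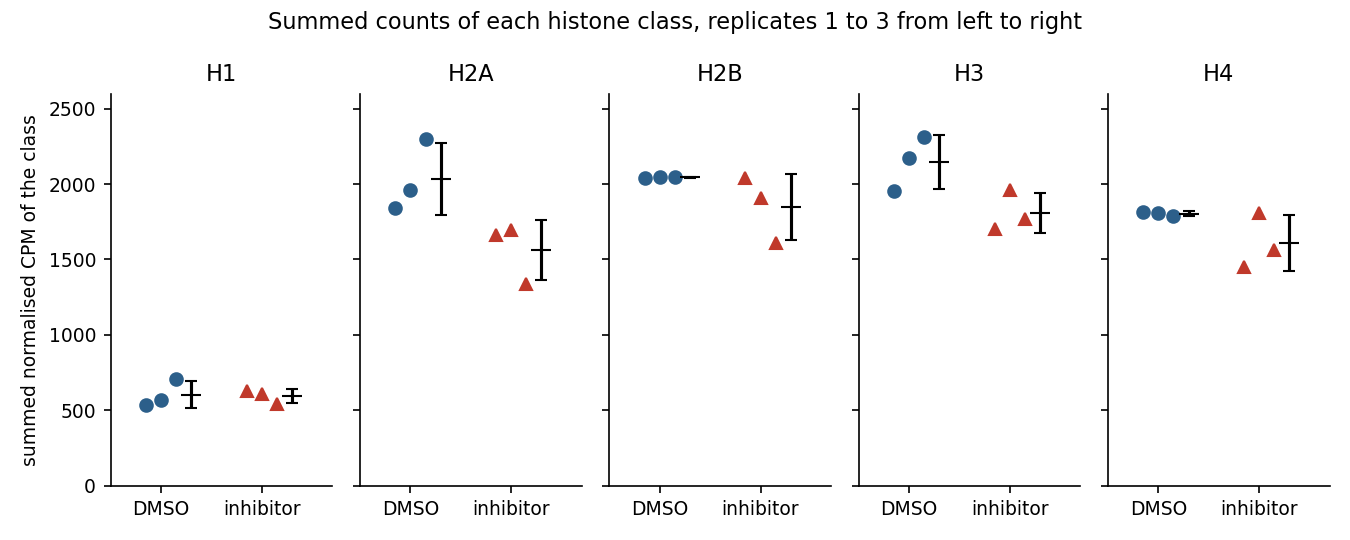
Summed normalised CPM of each histone class by library, from replicate 1 on the left of each group to replicate 3 on the right, with the mean and SD (n = 3) beside the points. The axis starts at 0. All 3 inhibitor sums of H2A are below all DMSO sums, and those of H1 lie within the DMSO range.

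Inhibitor replicate 3, whose total was the smallest, was the lowest of the 6 libraries for 21 of the 36 tested genes, and inhibitor replicate 1 for 9. Inhibitor replicate 2 was the lowest for 1. DMSO replicate 2 was the highest for 11 and DMSO replicate 3 for 9. In libraries thinned to the smallest total 10 genes were called lower, as at full depth. Without inhibitor replicate 3, 9 were called lower.

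**Figure D3:**
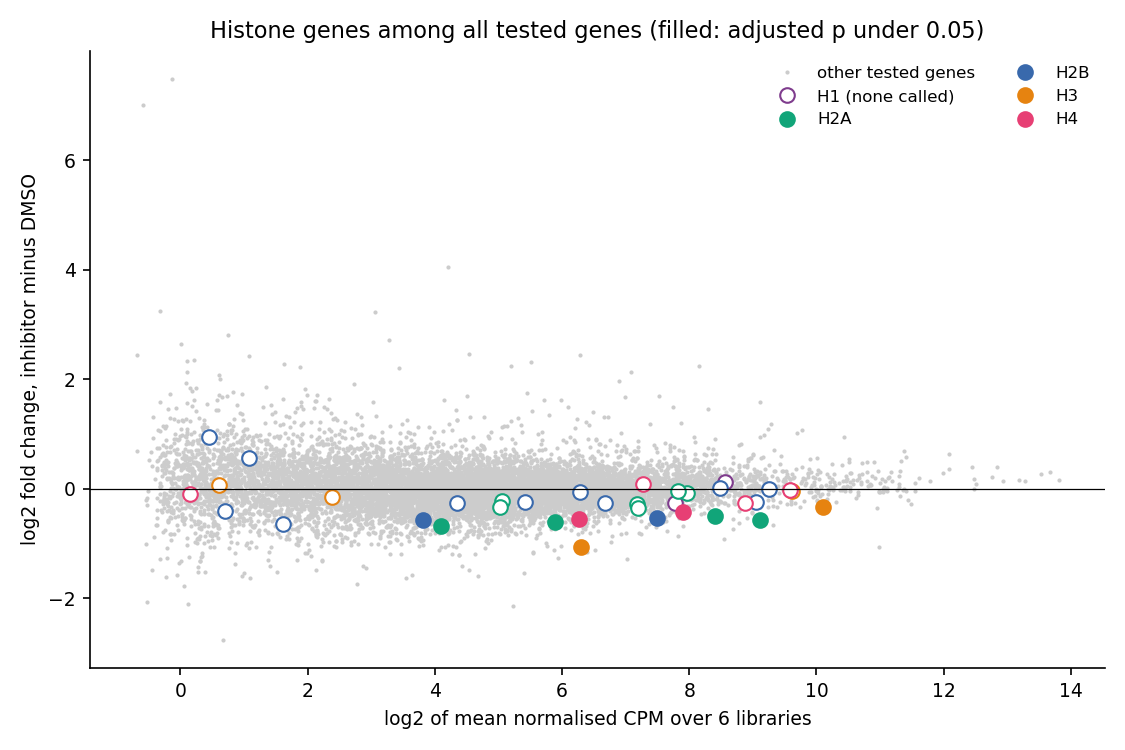
Mean normalised CPM over 6 libraries (log2) against the log2 fold change, inhibitor minus DMSO, of each of 11391 tested genes. Coloured circles are histone genes by class, filled where adjusted p was under 0.05, and grey points are the other genes. The histone genes that fell lie between -1.06 and -0.33.

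Of the head-to-head pairs of H2A and H2B genes, 5 had both members tested. HIST1H2AK and HIST1H2BN, whose starts are 194 bases apart, had log2 fold changes of -0.68 (called) and -0.25 (not called). HIST1H2AJ and HIST1H2BM, 245 bases apart, had -0.36 (not called) and -0.54 (called). HIST1H2AG and HIST1H2BJ, 248 bases apart, had -0.50 (called) and -0.41 (not called), the latter at under 3 CPM. HIST1H2AI and HIST1H2BL, 244 bases apart, had -0.29 and -0.64, and HIST3H2A and HIST3H2BB, 230 bases apart, had -0.34 and -0.24, with none of these called. The differences within pairs were not tested.

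The 7 members that are known to make polyadenylated mRNA as well, HIST1H1C, HIST1H2AC, HIST1H2BC, HIST1H2BD, HIST1H2BJ, HIST1H2BK and HIST2H2BE, had 0 calls and a median log2 fold change of -0.09. Of the 29 other tested members, 10 fell, with a median of -0.27. Of all genes tested 10.3% were called lower, a share at which 0 of 7 says little. Some of the 29 also have transcript models that run past the stem-loop, such as HIST1H2AG with 1761 bases after it. At an unadjusted p under 0.05, 2 of the 7 were lower and 0 were higher (17.0% and 16.3% of all genes). DESeq2 called 0 of the 7. The labels do not say how reverse transcription was primed, and polyadenylated and stem-loop mRNAs were not measured apart.

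Among genes listed for histone transcription, mRNA processing, decay and translation, SLBP and NPAT fell, while others were not called and 1 rose. SLBP, the stem-loop-binding protein, was at 73.6, 80.7 and 66.5 CPM with the inhibitor and 158, 133 and 143 CPM with DMSO. All inhibitor libraries lay far below DMSO, and SLBP fell by 0.97 on the log2 scale (adjusted p = 1.36e-06). NPAT, the coactivator at histone gene clusters, fell by 0.58 on the log2 scale, from 27.2 ± 2.94 to 18.3 ± 0.86 CPM (SD, n = 3, adjusted p = 0.00277). NPAT is named outside the rule for naming genes. CASP8AP2, the FLASH protein of histone pre-mRNA processing, fell by 0.73 on the log2 scale, from 13.0 ± 0.66 to 7.85 ± 1.57 CPM (SD, n = 3, adjusted p = 0.00333).

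Of the 24 tested genes listed for histone transcription and 3′ processing, 11 fell and 0 rose (median log2 fold change -0.24). Of all genes tested, 10.3% fell and 9.92% rose. At an unadjusted p under 0.05, 2 of the 24 were higher (16.3% of all genes), and DESeq2 called 0 higher (8.19%). CCNE2, which encodes cyclin E2, had the largest fall of the list (-1.58 ± 0.15, adjusted p = 1.59e-07), and SRRT, which links the cap-binding complex to 3′ processing, fell by 0.87 on the log2 scale. POU2F1, the gene of the octamer-binding factor, fell by 0.60 on the log2 scale (adjusted p = 0.00336). It is named outside the rule for naming genes, after its value was seen. LSM10 and LSM11, subunits of the U7 particle that cleaves histone pre-mRNA, had log2 fold changes of -0.07 ± 0.15 and 0.07 ± 0.28, and neither was called. They too are named outside that rule.

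Of 20 tested genes listed for histone mRNA decay and translation, 4 fell and 1 rose (median -0.10). Of all genes tested, 10.3% fell and 9.92% rose. Of the 20, 5 were lower and 2 higher at an unadjusted p under 0.05 (17.0% and 16.3% of all genes). DESeq2 called 4 lower and 1 higher (9.09% and 8.19%). Those that fell were SLBP, the lariat-debranching enzyme gene DBR1 (-0.51 ± 0.12), PNRC2 (-0.41 ± 0.10) and the exosome subunit gene EXOSC10, which is named outside the rule. ZCCHC7, a subunit of a nuclear RNA surveillance complex, rose by 0.63 ± 0.12 (adjusted p = 7.65e-04). The list includes general RNA factors such as DBR1 and ZCCHC7, so its counts are not of histone mRNA decay alone. UPF1 and ERI1, a helicase and an exonuclease of histone mRNA decay, had log2 fold changes of -0.18 ± 0.11 and -0.01 ± 0.18 and were not called. Both are named outside the rule.

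Of 25 tested histone chaperone and nucleosome assembly genes, 14 fell and 0 rose (median -0.41). Of all genes tested, 10.3% fell and 9.92% rose. At an unadjusted p under 0.05, 0 of the 25 were higher (16.3% of all genes), and DESeq2 called 0 higher (8.19%). CHAF1A and CHAF1B, subunits of the CAF-1 complex that deposits H3 and H4 on new DNA, fell by 1.16 and 0.94 on the log2 scale. CHAF1A was at 29.4, 28.8 and 28.4 CPM with the inhibitor and 64.0, 65.3 and 64.3 CPM with DMSO, with little spread in either group (adjusted p = 7.85e-08). ASF1B, which hands H3 and H4 to CAF-1, fell by 0.79 on the log2 scale, and MMS22L, a partner of the H3 and H4 chaperone TONSL, fell by 0.80 on the log2 scale.

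Of 35 tested DNA replication fork genes, 26 fell and 0 rose (median -0.55). This count was known from earlier results of these data. Of all genes tested, 10.3% fell and 9.92% rose. At an unadjusted p under 0.05, 0 of the 35 were higher (16.3% of all genes), and DESeq2 called 0 higher (8.19%). The largest falls were in CLSPN (-1.17 ± 0.13), MCM10 (-1.16 ± 0.11), GINS1 (-0.98 ± 0.13) and POLE2 (-0.87 ± 0.25), which act at the fork and its checkpoint. The call of POLE2 was lost with DESeq2 and without any one of 4 libraries (adjusted p from 0.0521 to 0.0834). The medians of the histone and fork lists were not tested against each other, and cell cycle phase was not measured.

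Of 10 tested variant and replication-independent histone genes, which are made outside S phase as well, 3 fell and 0 rose (median -0.20). Of all genes tested, 10.3% fell and 9.92% rose. At an unadjusted p under 0.05, 0 of the 10 were higher (16.3% of all genes), and DESeq2 called 0 higher (8.19%). H2AFX, the H2A variant that is phosphorylated at DNA breaks, was at 95.1, 79.7 and 80.5 CPM with the inhibitor and 130, 128 and 137 CPM with DMSO. It fell by 0.63 on the log2 scale without overlap (adjusted p = 2.06e-04). CENPA, the H3 variant of centromeres, fell by 0.47 on the log2 scale and was not called without DMSO replicate 2 (adjusted p = 0.0544). H1F0, a linker histone of slowly dividing cells, fell by 0.34 on the log2 scale and was not called without inhibitor replicate 1 (adjusted p = 0.0808) or DMSO replicate 3 (0.116). H3F3B, which encodes the replacement histone H3.3, was at 994 ± 29.1 and 950 ± 99.6 CPM (SD, n = 3, log2 fold change 0.07 ± 0.10), and H2AFZ had a log2 fold change of -0.15 ± 0.12. Both are named outside the rule and were not called.

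**Figure D4:**
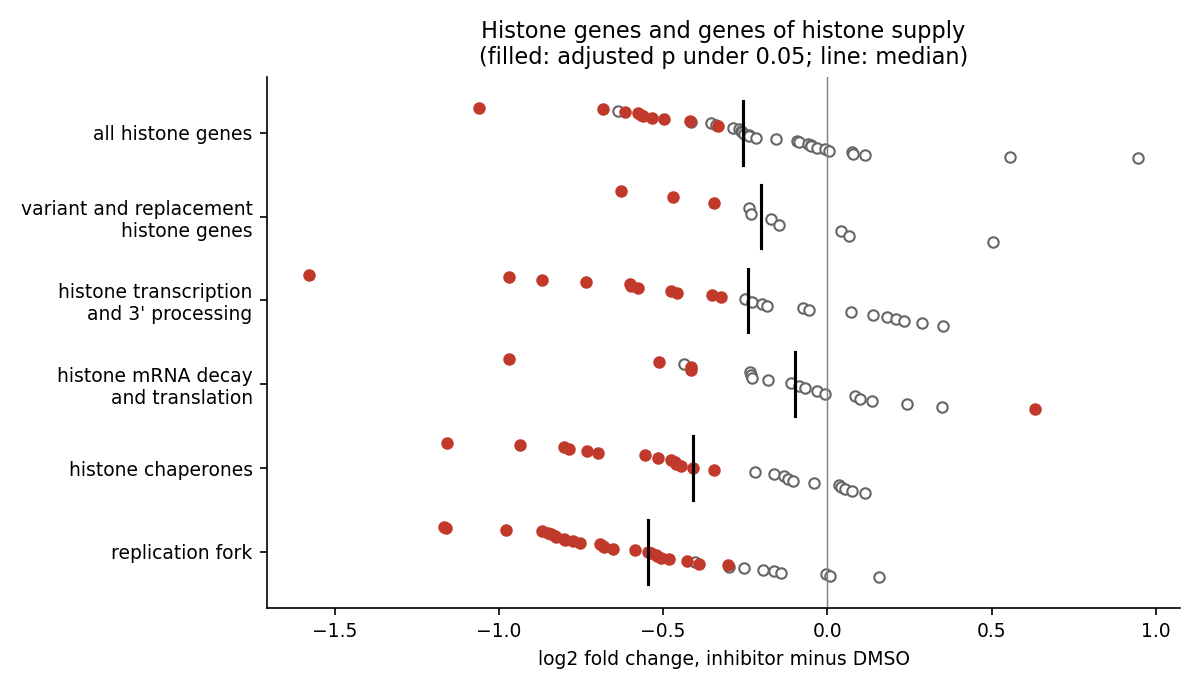
log2 fold change, inhibitor minus DMSO, of the tested genes of each list, from the 36 histone genes at the top to the 35 replication fork genes at the bottom. Filled points have an adjusted p under 0.05 and the black line is the median of the list. The median lies at -0.26 for the histone genes and at -0.55 for the fork genes.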

How the data were processed

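RNA of HT-1080 cells was reverse transcribed, parts of targeted transcripts were amplified with an Ion AmpliSeq transcriptome panel and the amplicons were read by Ion Proton sequencing, as the labels' protocols say. The deposited tables hold raw read counts per gene symbol, and HTSeq, DESeq2 1.20.0 and hg19 are named without a role in the submitters' processing notes. The sources used here do not give the aligner, annotation or use of strand, so overlapping genes may share reads. No coordinates on hg19 were used.

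Counts of 6 libraries were tested with edgeR 4.0.16 (R 4.3.3) after filterByExpr and TMM scaling, inhibitor against DMSO with no covariate. Quasi-likelihood p-values were adjusted by the Benjamini-Hochberg method over 11391 genes, which held 99.924% of counts, and a call needs an adjusted p under 0.05. SE is the absolute log2 fold change over the square root of F. Class sums are CPM with the same scaling, and their difference is of mean log2 values. The fit was tested on simulated data. The genes and lists were chosen with earlier results of these data known. Named genes were the 3 most counted and up to 4 called members with the smallest p in each class and direction, and up to 4 called genes of each list with the largest change. Where a list had none called, up to 2 with the smallest p were taken, and other histone members were named to account for all. Promoters are from RefSeq (GRCh38.p14) and stem-loops from GENCODE v29 transcripts.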

Additional observations from a re-analysis of the deposited data

How the results depend on the processing

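Of the 10 histone genes called lower, 7 stayed called under all 13 gene-level alternatives, and the exceptions were HIST1H2AG, HIST1H3C and HIST1H4B, each lost only when a library was left out. The number called lower was 10 with DESeq2 size factors, with a minimum mean of 1 CPM and at the smallest depth, 11 with DESeq2, 14 with no filter beyond 1 count and 17 with library totals, which added HIST1H1C, HIST1H2AI, HIST1H2AJ, HIST1H2BL, HIST1H4H, HIST2H2BE and HIST3H2A. It was 9 to 12 with each library left out, and the number called higher was 0 to 1, the 1 being HIST1H2BF. Over all genes 2298 were called, and 1405 to 2246 with a library left out, the lowest without DMSO replicate 2. The replicate numbers did not pair the samples (correlations of 0.032, -0.017 and 0.0069 between same-numbered deviations), and not every library correlated best with its own number. With the replicate block 11 histone genes and 2223 of all genes were called, the added histone gene being HIST1H2AJ (-0.38, edgeR adjusted p = 0.0325), and HIST1H2BC was at -0.018. That gene, near 0 and not called, was at -0.063 with library totals, -0.0092 with no filter and -0.00077 with DESeq2. With a library left out, uncalled genes that changed sign ranged from -0.23 to 0.15 (HIST1H2BC), -0.20 to 0.081 (HIST1H2AC), -0.066 to 0.079 (HIST1H2BD), -0.14 to 0.044 (HIST2H2AB), -0.12 to 0.023 (HIST1H3B), -0.13 to 0.059 (HIST1H4C), -0.12 to 0.42 (HIST1H3H), -0.015 to 0.18 (HIST1H4E) and -0.21 to 0.10 (HIST1H4I). The H1 sum ranged from -0.10 to 0.10. Without HIST1H1E, the most counted H1 gene, it was -0.25 and came almost only from HIST1H1C. The sums of H2A, H2B, H3, H4 and all classes stayed below 0 with each library left out. They ranged from -0.45 to -0.27, -0.22 to -0.05, -0.32 to -0.19, -0.26 to -0.10 and -0.27 to -0.16. The causes were not tested. With 3 libraries a group and few counts in HIST1H2BF, HIST1H2BJ, HIST1H3H and HIST1H4I, small differences in these genes were not detectable at this depth.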
